A study of Mus musculus with 2 samples.

Results

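Imprinted growth-related genes were described in cranial neural crest cells (CNCCs) of E11.5 mouse embryos. The list held 42 genes, chosen by symbol from the 32285 genes of the count tables. No measured value served as a rule for the choice, but earlier results of these data were known when it was made. Each of the 42 had at least 100 unique molecular identifiers (UMIs, tags that mark single captured transcripts) in the cells kept. They lay on 10 chromosomes, and 7 of them were long non-coding RNAs.

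Neural crest cells leave the border of the neural tube and form much of the face. The CNCCs came from the heads of E11.5 embryos, rostral to the otic placode, in which Wnt1:CRE had switched the mTmG reporter to membrane GFP, and GFP-positive cells were sorted for 10x Genomics 3′ single-cell RNA-seq. The control library was a pool of 2 Tfap2HET embryos with Wnt1CRE+, wt/flox alleles of Tfap2a and likewise of Tfap2b, and r26 mTmG/mTmG. The mutant library was a pool of 2 sibling-matched Tfap2NCKO embryos that were flox/flox for Tfap2a and likewise for Tfap2b, again with Wnt1CRE+ and r26 mTmG/mTmG. Both groups thus carried the CRE driver, 2 reporter alleles and at least 1 floxed allele of each gene. The driver also marks brain cells, so the sorted cells were not only neural crest. With 1 library per group there was no replicate check, and brackets below give 95% intervals for counting error only.

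Imprinted genes are read mainly from 1 parental copy, chosen by DNA methylation set in the germ line. In the embryo, paternally expressed members such as Igf2, a growth factor ligand, are known to promote growth, while maternally expressed members such as Cdkn1c, a cyclin-dependent kinase inhibitor, and Igf2r, a receptor that clears IGF2, are known to restrain it. Neighbouring members often share a control region and oppose each other, as the Igf2 and H19 pair does. These counts did not separate the parental copies.

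Several members are hosts of microRNAs, and their mature sequences show which regulators could be made from the transcripts counted here. In RefSeq (GRCm38.p6), 56 mature microRNAs lay within 8 members, 26 of them in Mirg, 13 in Rtl1, 6 in Rian, 3 in Meg3 and 2 each in H19, Igf2, Mest and Usp29. Of the 13 in Rtl1, 11 lie on its opposite strand. The lines below give 1 or 2 for each of 7 hosts, with the seed (bases 2 to 8) in capitals. No 2 of these 8 shared a seed, and the counts measured the host RNA, not the mature microRNA.
miR-675-5p (in H19): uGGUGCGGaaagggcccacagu
miR-675-3p (in H19): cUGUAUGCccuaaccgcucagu
miR-483-3p (in Igf2): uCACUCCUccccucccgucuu
miR-335-5p (in Mest): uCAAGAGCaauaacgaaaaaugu
miR-770-3p (in Meg3): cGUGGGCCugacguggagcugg
miR-370-3p (in Rian): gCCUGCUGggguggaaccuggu
miR-410-3p (in Mirg): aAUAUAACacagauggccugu
miR-127-3p (opposite Rtl1): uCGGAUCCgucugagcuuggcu

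TFAP2 factors bind the palindrome GCCNNNGGC, which reads the same on both strands. Among RefSeq windows of the 250 bases before a transcript start, 13.7% of 32851 held it, and 15.4% of 27025 genes had at least 1 such window. Of the 34 members with a window, 9 held it (26.5%), namely Igf2, Meg3, Zim1, Ppp1r9a, Casd1, Mest, Phlda2, Plagl1 and Zdbf2. A match is only a run of letters and not a bound site. The lines below show the windows of 4 members whose levels differed between the libraries in parts of the mesenchyme, with the motif in capitals. It lay 202 bases before the start in Meg3, 82 in Plagl1 and 114 in Zdbf2, and these letters were not in the Nnat window. Meg3 and Zdbf2 each have 1 more RefSeq window, for another start, which is not shown and does not hold the motif. The 4 members shown were picked after their values were seen and do not stand for all members that differed. Dlk1, Rian, Mirg, Airn, Peg3, Usp29, Asb4 and Dio3 also differed by 1.5-fold or more in the mesenchyme or parts of it. None of their windows held the motif.
Meg3 (chr12:109540746-109540995, plus strand, GRCm38.p6): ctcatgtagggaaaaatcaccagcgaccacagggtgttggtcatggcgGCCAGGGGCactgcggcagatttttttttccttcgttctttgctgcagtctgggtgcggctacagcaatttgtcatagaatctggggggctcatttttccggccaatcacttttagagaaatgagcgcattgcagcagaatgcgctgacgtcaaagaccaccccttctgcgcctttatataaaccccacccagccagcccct
Plagl1 (chr10:13090582-13090831, plus strand, GRCm38.p6): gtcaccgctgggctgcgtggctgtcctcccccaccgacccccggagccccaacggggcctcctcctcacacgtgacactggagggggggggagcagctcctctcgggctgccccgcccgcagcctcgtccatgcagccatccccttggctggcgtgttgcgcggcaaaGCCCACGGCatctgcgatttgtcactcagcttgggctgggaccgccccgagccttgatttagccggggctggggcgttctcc
Zdbf2 (chr1:63273019-63273268, plus strand, GRCm38.p6): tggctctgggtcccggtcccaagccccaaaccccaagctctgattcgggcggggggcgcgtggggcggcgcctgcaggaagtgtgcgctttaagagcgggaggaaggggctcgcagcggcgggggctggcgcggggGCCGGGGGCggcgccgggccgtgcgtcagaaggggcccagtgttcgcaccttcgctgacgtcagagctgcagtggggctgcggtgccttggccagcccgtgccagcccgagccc
Nnat (chr2:157559828-157560077, plus strand, GRCm38.p6): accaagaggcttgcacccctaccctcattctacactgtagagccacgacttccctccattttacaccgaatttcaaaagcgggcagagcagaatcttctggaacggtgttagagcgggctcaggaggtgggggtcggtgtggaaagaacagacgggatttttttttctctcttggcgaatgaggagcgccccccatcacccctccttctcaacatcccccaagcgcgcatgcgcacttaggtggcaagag

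Filtering left 5625 control and 5587 mutant cells, whose median depths were 13478 and 12234 UMIs. They fell into mesenchyme-like (3751 control and 2809 mutant), neuron-like (977 and 1518), brain progenitor-like (634 and 1060) and glia-like cells (263 and 200). Markers of each class summed to a higher level in that class than in the other 3 classes in both libraries. The same markers had named the classes, so these sums are not a separate check. Xist was detected in 98.8% of control cells but only 0.107% of mutant cells, Y-linked genes in 0.0356% and 82.0%, so that genotype and the sex of the embryos cannot be told apart throughout. Tags of the floxed genes were still detected in the mutant mesenchyme, Tfap2a with 1122 control and 586 mutant UMIs (19.3 and 13.4 CPM) and Tfap2b with 56.0 and 47.2 CPM. A 3′ tag does not tell an intact from a recombined allele. The 2 libraries shared 5 barcodes among the kept cells.

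The members together made up 0.775% of control and 0.848% of mutant UMIs in the mesenchyme, and 0.777% and 0.842% in neuron-like cells. The shares were lower in brain progenitor-like cells, with 0.502% and 0.480%, and in glia-like cells, with 0.548% and 0.563%. Levels are given as CPM, the UMIs of a gene summed over the cells of a class for each 1000000 UMIs of that class, and are compared only within a gene, since they are not divided by length. The 4 classes divided the list. In both libraries, 14 of 42 members (33.3%) were highest in the mesenchyme, against 14.7% of all genes with at least 100 UMIs, and 17 (40.5%) were highest in neuron-like cells, against 29%. Copg2, Plagl1, Peg12 and Commd1 were highest in brain progenitor-like cells (9.52%, against 20.8%), and Gnas and Impact in glia-like cells (4.76%, against 8.97%). In 37 members the highest class was the same in both libraries. The other 5 were Rtl1, Dio3, Sgce, Ppp1r9a and Grb10. Of the 39 members that could be compared, 19 lay at least 4-fold apart between their highest and lowest class in both libraries (48.7%, against 18.6% of genes).

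**Figure D1:**
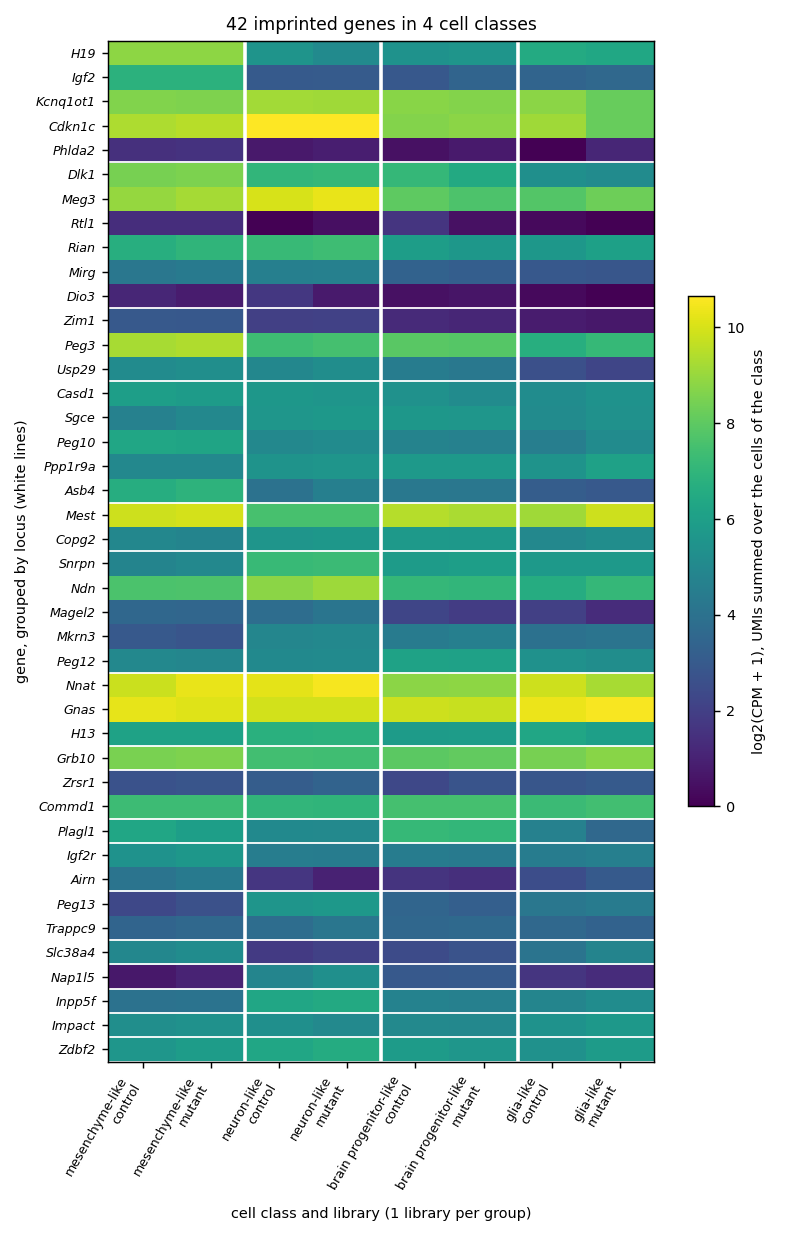
Levels of the 42 imprinted genes in 4 cell classes of the control and mutant libraries, as log2(CPM + 1) of UMIs summed over the cells of a class, with genes grouped by locus between white lines. The H19/Igf2 pair, Slc38a4 and Airn are bright mainly in the mesenchyme-like columns, Nap1l5, Peg13 and Snrpn in the neuron-like columns.

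The growth factor Igf2 (ENSMUSG00000048583, chromosome 7, 142650766 to 142666816, minus strand of GRCm38) was mostly a mesenchyme transcript. It had 115 CPM in the control and 113 CPM in the mutant library, and between 6.64 and 11.1 CPM in the other classes. In cells thinned to 5000 UMIs, 32.5% of control and 32.3% of mutant mesenchyme cells had an Igf2 UMI, against 1.74% and 1.81% of neuron-like cells. Without thinning the shares were 50.8% and 52.2% against 3.99% and 4.15%, at median depths of 14557 and 14456 against 9739 and 9778 UMIs, and thinning left out 50 and 56 mesenchyme and 56 and 83 neuron-like cells. What gave the Igf2 UMIs in neuron-like cells was not tested. H19 (ENSMUSG00000000031, chromosome 7, 142575529 to 142578143, minus strand), the non-coding partner of Igf2, followed the same order, with 463 CPM in the control and 461 CPM in the mutant library in the mesenchyme and at most 89.9 CPM elsewhere. Igf2r had 42.4 and 48.8 CPM in the mesenchyme and between 19.9 and 23.4 CPM in the other classes. Airn, the non-coding RNA that overlaps Igf2r on the opposite strand, had 16.2 and 19.4 CPM there and 2.26 and 1.05 CPM in neuron-like cells, and strand handling was not stated, so the split between this pair is uncertain. Grb10, an adaptor that restrains insulin and IGF receptors, was spread more evenly, from 166 CPM in mutant neuron-like to 429.7 CPM in mutant glia-like cells. The mesenchyme was thus the class where the ligand, its non-coding partner and its clearing receptor were all highest.

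Other mesenchyme-high members span further domains. Dlk1 (ENSMUSG00000040856, chromosome 12, 109452823 to 109463336, plus strand), a membrane protein related to Notch ligands, had 356 CPM in the control and 379 CPM in the mutant library, above 127 and 137 CPM in neuron-like and 136 and 88.9 CPM in brain progenitor-like cells. Peg3, a zinc-finger protein, had 614 and 672 CPM in the mesenchyme and 160.0 and 180.4 CPM in neuron-like cells. Its neighbours Usp29 and Zim1 were also highest in the mesenchyme and lowest in glia-like cells. Unlike Peg3, both were higher in neuron-like than in brain progenitor-like cells. Usp29 had 33.9 and 38.0 CPM in the mesenchyme, 29.3 and 36.7 CPM in neuron-like and 5.05 and 3.70 CPM in glia-like cells. Zim1 went from 6.76 and 6.58 CPM in the mesenchyme to 0.777 and 0.616 CPM in glia-like cells. Asb4, an ankyrin-repeat protein, had 99.0 and 118 CPM in the mesenchyme and 7.96 and 6.78 CPM in glia-like cells. Peg10, derived from a retrotransposon, had 78.3 and 74.0 CPM in the mesenchyme and 26.1 and 24.8 CPM in brain progenitor-like cells. Not all of the Peg10 domain was ordered this way, since Sgce and Ppp1r9a were lowest in the mesenchyme in both libraries, with 24.5 and 30.2 CPM and 30.0 and 30.7 CPM. Slc38a4, an amino acid transporter, had 29.5 and 35.2 CPM in the mesenchyme and 2.53 and 3.15 CPM in neuron-like cells. Mest (ENSMUSG00000051855, chromosome 6, 30723547 to 30748465, plus strand), of the hydrolase fold family, had 909 and 1014 CPM in the mesenchyme, 707 and 627 CPM in brain progenitor-like, 564 and 913 CPM in glia-like and 188 and 189.5 CPM in neuron-like cells. Mest and Copg2 overlap at their ends on opposite strands, so reads near that point are uncertain.

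The neuron-high members include 4 of the 5 genes of the Snrpn region. Ndn, which encodes a MAGE-family protein, had 446 and 542 CPM in neuron-like cells of the control and mutant libraries, 196 and 206 CPM in the mesenchyme and 136 and 128 CPM in brain progenitor-like cells. Magel2, of the same family, had 12.9 and 16.5 CPM in neuron-like, 10.8 and 10.6 CPM in mesenchyme-like and 3.63 and 2.75 CPM in brain progenitor-like cells. Snrpn, which encodes a splicing protein, had 145 and 154 CPM in neuron-like and 27.0 and 30.2 CPM in mesenchyme-like cells. Mkrn3, a RING-finger gene, had 29.1 and 30.5 CPM in neuron-like and 6.93 and 5.94 CPM in mesenchyme-like cells. Peg12, the other member there, was instead highest in brain progenitor-like cells, with 70.4 and 66.9 CPM against 32.0 and 33.1 CPM in neuron-like cells. Nap1l5 (ENSMUSG00000055430, chromosome 6, 58905233 to 58907076, minus strand), a nucleosome assembly protein relative, was the most uneven member, with 28.0 and 38.2 CPM in neuron-like and 0.619 and 1.07 CPM in mesenchyme-like cells, where it rested on 36 control and 47 mutant UMIs. The non-coding Peg13, which lies inside Trappc9 on the same strand, had 46.4 and 50.3 CPM in neuron-like and 4.01 and 5.25 CPM in mesenchyme-like cells. Inpp5f, a phosphoinositide phosphatase, had 78.9 and 89.1 CPM in neuron-like and 15.2 and 15.9 CPM in mesenchyme-like cells. In each of these 3 genes the mesenchyme was the lowest class. Meg3 (ENSMUSG00000021268, chromosome 12, 109541001 to 109571726, plus strand), the non-coding RNA of the Dlk1-Dio3 domain, had 1024 and 1255 CPM in neuron-like, 494 and 589 CPM in mesenchyme-like and 256 and 207 CPM in brain progenitor-like cells. Nnat (ENSMUSG00000067786, chromosome 2, 157560078 to 157562522, plus strand) encodes a small membrane protein found in the developing brain. It had 1208 and 1448 CPM in neuron-like, 902 and 1265 CPM in mesenchyme-like and 451 and 459.5 CPM in brain progenitor-like cells. Cdkn1c (ENSMUSG00000037664, chromosome 7, 143458339 to 143461050, minus strand) had 1614 and 1593 CPM in neuron-like, 649 and 735 CPM in mesenchyme-like and 404 and 440.4 CPM in brain progenitor-like cells. Kcnq1ot1, the non-coding RNA of the Cdkn1c domain, ran from 290.4 CPM in mutant glia-like to 578 CPM in control neuron-like cells. Plagl1, a zinc-finger transcription factor, was instead highest in brain progenitor-like cells, with 139 and 132 CPM, against 78.4 and 61.9 CPM in mesenchyme-like and 31.9 and 31.4 CPM in neuron-like cells.

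Within the neuron-like class the levels varied among clusters, which were again formed without the imprinted genes. In sensory ganglion-like cells (62 control and 100 mutant), Meg3 had 2979 and 3110.4 CPM, Nnat 2328 and 2353 CPM, Ndn 1110.3 and 1144 CPM and Snrpn 342 and 355 CPM. Dio3, whose product inactivates thyroid hormone, had 22 control and 7 mutant UMIs in these cells, of 26 control and 12 mutant UMIs in the whole class. Cdkn1c was instead highest in cluster 0, led by Dbx1 and Tfap2d, with 3714 and 3376 CPM, and in cluster 6, led by Tfap2a and Tlx1, with 4234 and 3531 CPM. A cluster led by Wnt3a and Id1 (126 and 168 cells) had the lowest levels among clusters of over 100 cells, with 22.2 and 16.6 CPM of Meg3 and 239.7 and 276 CPM of Nnat. That cluster kept no name. Its leading genes included the glia marker Ednrb and no neuron marker, so a neuronal identity was not shown. The members made up 0.343% and 0.347% of its UMIs, and 1.10% and 1.14% of those of the sensory ganglion-like cells.

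The mesenchyme was then divided into regions. Clusters 1, 3 and 4 were frontonasal-like (757 control and 479 mutant cells), maxillary-like (673 and 471) and mandibular-like (725 and 373). Cluster 0 (856 and 661), led by Vtn, Tfap2b and Zic1, and cluster 2 (611 and 558), led by genes that include Hoxa2, Emx2 and Dlx3, kept no name. Frontonasal markers were not confined to cluster 1, with 881 and 737 CPM there and 718 and 436 CPM in cluster 0. Cluster 5 was second arch-like with 91 and 190 cells, and cluster 6 had 38 and 77 cells, of which 73.7% and 68.8% were called doublets. The imprinted genes took no part in forming these clusters. The mandibular-like cells, led by Hand2os1, Hand1 and Hand2, stood apart. The members made up 1.42% of control and 1.54% of mutant UMIs there, against between 0.538% and 0.842% in clusters 0 to 3. Of 40 members with at least 100 UMIs in clusters 0 to 4, 23 (57.5%) were highest in cluster 4 in both libraries, against 8.44% of all genes. In cluster 0 there were 4 (10.0%, against 16.6%), namely Sgce, Mkrn3, Snrpn and Slc38a4, in cluster 3 there were 2 (5.0%, against 7.04%), Peg10 and Nnat, in cluster 2 there was 1 (2.5%, against 9.83%), Commd1, and in cluster 1 there were 0 (against 7.09%). Between the highest and the lowest of these clusters, 22 members (55.0%) lay at least 2-fold apart in both libraries, against 15.6% of genes.

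Igf2 had 381 and 387 CPM in the mandibular-like cells of the control and mutant libraries, against 37.8 and 43.2 CPM in frontonasal-like and 71.1 and 65.9 CPM in maxillary-like cells. H19 had 1390.1 and 1478 CPM in the mandibular-like and 194 and 213 CPM in the frontonasal-like cells. The same order held for Dlk1, with 1189 and 1530.2 CPM in the mandibular-like cells and 82.8 and 147 CPM in cluster 0, where it was lowest in the control library. Peg3 had 1574 and 1844 CPM and Meg3 1258 and 1235 CPM in the mandibular-like cells, while in frontonasal-like cells Peg3 had 292 and 305 CPM and Meg3 213 and 295 CPM. These genes shared their highest region, but they are not all separate loci. Igf2 and H19 are neighbours on chromosome 7, Dlk1 and Meg3 share a domain on chromosome 12, and Peg3 lies in another domain of chromosome 7. Plagl1 (ENSMUSG00000019817, chromosome 10, 13060504 to 13131694, plus strand) had the steepest gradient of the 40 members, from 299.7 and 269 CPM in mandibular-like to 7.81 and 10.1 CPM in maxillary-like cells. Magel2 had 36.5 and 34.6 CPM in the mandibular-like cells and 1.41 and 1.80 CPM in cluster 0, and Zim1 had 25.6 and 28.4 CPM in the former and 1.90 and 2.25 CPM in the latter. Cdkn1c was highest there too, with 1106 and 1488 CPM against 378 and 432 CPM in cluster 2. In these values growth-promoting and growth-restraining members were high in the same region. Nnat went another way, with 1467 and 1796 CPM in maxillary-like and 1025 and 1050.3 CPM in mandibular-like cells. Magel2 in the mandibular-like and Nnat in the maxillary-like cells thus lay above their levels in the neuron-like class as a whole. Grb10, Kcnq1ot1, Commd1 and H13 stayed within 1.5-fold across the 5 clusters in both libraries. So did Ppp1r9a, Casd1, Copg2, Mkrn3, Snrpn, Peg12, Impact and Inpp5f. The median UMI number per cell was 13443 and 15372 in the mandibular-like cells. In the other 4 clusters it ran from 13489.5 to 17563 in the control and from 12195 to 18905 in the mutant library.

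**Figure D2:**
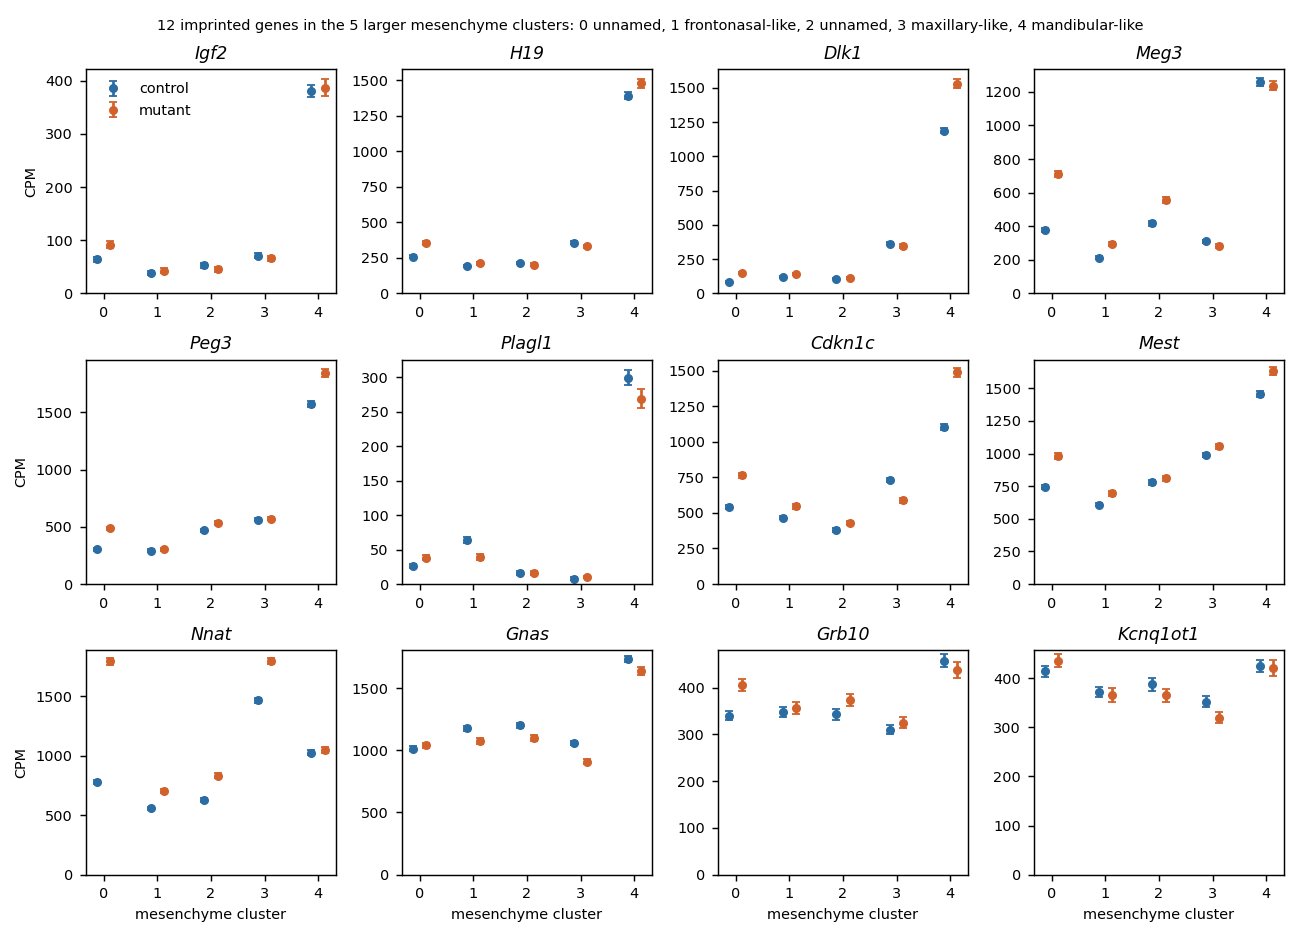
CPM of 12 imprinted genes in the 5 larger mesenchyme clusters of the control (blue) and mutant (orange) library, with exact 95% intervals for counting error as bars. Igf2, H19, Dlk1, Meg3, Peg3 and Plagl1 peak in cluster 4, the mandibular-like cells, in both libraries, while Nnat does not, and Nnat, Meg3 and Cdkn1c lie higher in the mutant library in cluster 0.

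Levels were also compared cell by cell. In cells thinned to 5000 UMIs, H19 and Dlk1 correlated with r = 0.55 over 3701 control and r = 0.52 over 2753 mutant cells, values that share library, depth and region. Within the mandibular-like cells, H19 and Peg3 had r = 0.44 and 0.54, and Plagl1 and Gnas, which encodes the stimulatory G protein subunit, r = 0.52 and 0.52, over 722 and 371 cells. These are descriptions across cells, which are not replicates.

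Mutant and control were compared next, which asks whether members differ with loss of the floxed Tfap2a and Tfap2b alleles in the crest. A member was called apart where its CPM differed 1.5-fold or more with at least 100 UMIs over both libraries in the class. In the mesenchyme, 41 members had that many UMIs and few stood apart. None was higher by that fold, against 3.07% of all genes, and 1 was lower (2.44%, against 1.01%). The lower 1 was Dio3 with 69 control and 33 mutant UMIs, a log2 ratio of mutant over control of -0.65 (-1.30 to -0.04), and it was no longer past the fold in thinned cells or without the small clusters. The median log2 ratio of the members was 0.11, against 0.02 over all genes, and 26 of 41 were positive, against 56.6% of all genes. The highest ratio of the 41 members was that of Nnat, from 902 to 1265 CPM, with 0.49 (0.47 to 0.50). Next came Peg13 with 0.39 (0.12 to 0.66), from 233 control and 230 mutant UMIs. Zdbf2, another zinc-finger gene, had 0.32 (0.24 to 0.40), Sgce 0.30 (0.19 to 0.41) and Rian 0.29 (0.24 to 0.34). Asb4, Airn, Slc38a4 and Meg3 followed, between 0.25 and 0.26. Plagl1 was lower, from 78.4 to 61.9 CPM, with -0.34 (-0.41 to -0.27). Igf2, H19 and Kcnq1ot1 lay at -0.03, -0.01 and -0.01.

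The mix of regions moved some of these values. Mandibular-like cells were 725 of the control but 373 of the mutant mesenchyme cells. With the shares of the clusters held at the mean of both libraries, Plagl1 came to -0.06 in place of -0.34, Dlk1 to 0.37 in place of 0.09, and Igf2 and H19 to 0.18 and 0.19. Nnat stayed at 0.51.

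**Figure D3:**
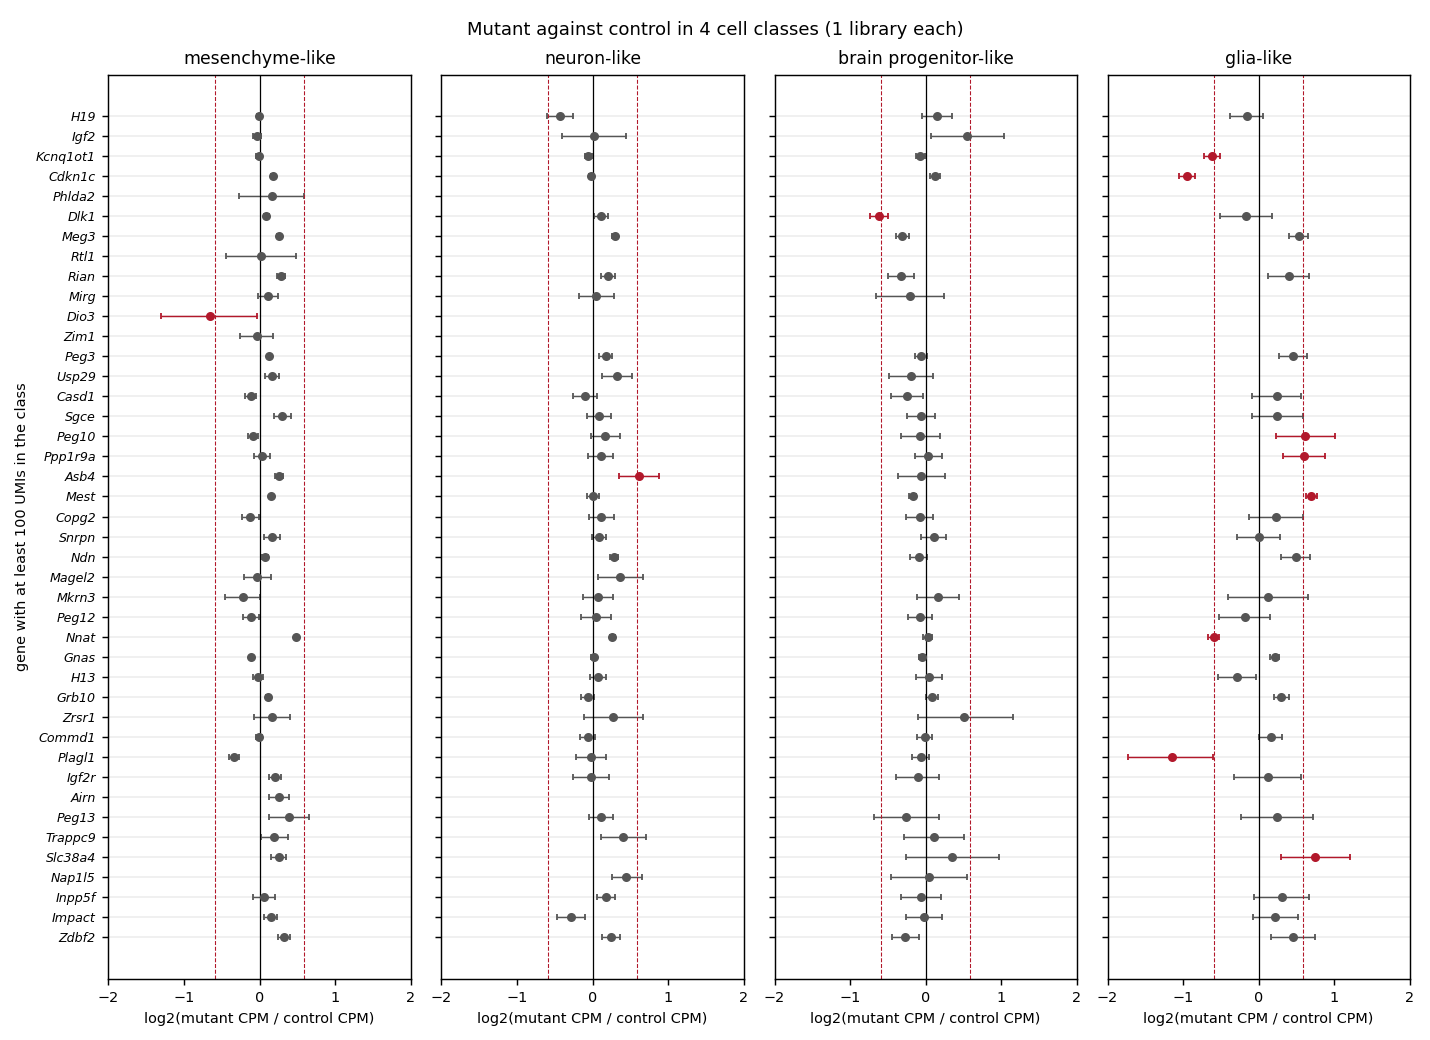
Log2 ratio of mutant over control CPM for each imprinted gene with at least 100 UMIs in a class, with exact 95% intervals for counting error, in 4 panels for the 4 classes. Points past the dashed lines at 1.5-fold are red, namely Dio3 in mesenchyme-like, Asb4 in neuron-like, Dlk1 in brain progenitor-like and 8 genes in glia-like cells.

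In neuron-like cells, 1 of 36 members was higher by 1.5-fold (2.78%, against 1.6% of genes) and none was lower (against 1.2%). Asb4 went from 15.2 to 23.3 CPM, with 0.62 (0.35 to 0.88). Of its 168 control and 399 mutant UMIs, 53 and 149 lay in a cluster led by mesenchyme genes, where 63.0% and 87.3% of cells were called doublets, and without called doublets or small neuron clusters Asb4 was no longer past the fold. Meg3 had 0.29 (0.26 to 0.33), Nap1l5 0.45 (0.25 to 0.65), Ndn 0.28 (0.23 to 0.33) and Nnat 0.26 (0.23 to 0.29), and H19 had -0.43 (-0.61 to -0.25). The control neuron-like cells held 5814 CPM of blood markers against 1.23 CPM in the mutant, and 5 control barcodes were rich in haemoglobin UMIs.

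In brain progenitor-like cells none of 36 members was higher by 1.5-fold (against 1.42% of genes) and 1 was lower (2.78%, against 0.925%). Dlk1 went from 136 to 88.9 CPM, with 1087 control and 1165 mutant UMIs and -0.61 (-0.74 to -0.49). The other members of the Dlk1-Dio3 domain with enough UMIs were also below 0, Meg3 with -0.31 (-0.39 to -0.22), Rian with -0.32 (-0.50 to -0.15) and Mirg with -0.21 (-0.65 to 0.24). The 10 cells with the most Dlk1 UMIs held 36.1% of them in the control and 31.0% in the mutant library. Dlk1 was not past the fold when each cell had equal weight or the libraries were not integrated. The median of the members was -0.06, against -0.01 over all genes.

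In glia-like cells 8 of 29 members stood apart, 4 higher (against 6.22% of genes) and 4 lower (against 4.89%). Higher were Mest, from 564 to 913 CPM with 0.70 (0.62 to 0.77), Slc38a4 with 0.75 (0.30 to 1.21), Peg10 with 0.62 (0.23 to 1.00) and Ppp1r9a, an actin-binding neurabin, with 0.60 (0.33 to 0.88). Lower were Plagl1, from 24.7 to 11.1 CPM with -1.15 (-1.73 to -0.61), Cdkn1c, from 558 to 289 CPM with -0.95 (-1.06 to -0.84), Kcnq1ot1 with -0.62 (-0.73 to -0.51) and Nnat with -0.60 (-0.67 to -0.52). With either other scaling, 2 were higher and 4 lower. The glia-like cells of the 2 libraries differed in markers. All 8 neuron markers were detected in both, and they summed to 2482 CPM in the control (27.0% of their level in neuron-like cells) and 334 CPM in the mutant library (3.66%), while the 8 glia markers summed to 827 and 1485 CPM. In 94 control (35.7%) and 11 mutant cells (5.5%) glia marker UMIs did not outnumber neuron marker UMIs. In the other 169 control and 189 mutant cells, 28 members could be compared. There 1 was higher, against 3.63% of genes, namely Ndn with 0.66 (0.44 to 0.89), and 3 were lower, against 2.69%, namely Nnat with -0.68 (-0.77 to -0.60), Dlk1 with -0.62 (-1.05 to -0.20) and Kcnq1ot1 with -0.61 (-0.74 to -0.48). Cdkn1c had -0.38 and Mest 0.20 in these cells. In the 94 control and 11 mutant cells set aside, Nnat and Kcnq1ot1 were not lower, with 0.11 (-0.09 to 0.31) and 0.17 (-0.10 to 0.43). Dlk1 was higher there, with 2.00 (1.39 to 2.60) from 72 control and 36 mutant UMIs, the reverse of its value in the marker-led cells. Ndn had 0.57 (0.05 to 1.05), Cdkn1c 0.03 (-0.17 to 0.23) and Mest 1.55 (1.05 to 2.04) in the cells set aside.

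Among the mesenchyme clusters, cluster 0 stood apart. Of 36 members with at least 100 UMIs there, 8 (22.2%) were higher by 1.5-fold in the mutant library, against 4.65% of genes, and none was lower, against 1.4%. The median log2 ratio of the members was 0.39, against 0.01 over all genes. Nnat went from 779 to 1794 CPM, with 9417 control and 15961 mutant UMIs and 1.20 (1.17 to 1.24). Meg3 went from 379 to 712 CPM, with 0.91 (0.86 to 0.97), and Rian and Mirg, its non-coding neighbours, had 0.99 (0.86 to 1.12) and 0.72 (0.41 to 1.04). Dlk1, at the other end of that domain, went from 82.8 to 147 CPM, with 0.82 (0.70 to 0.94). The remaining genes were Airn with 0.69 (0.40 to 0.97), Peg3 with 0.68 (0.62 to 0.75) and Zdbf2 with 0.64 (0.45 to 0.84). Igf2 and H19 had 0.51 and 0.46 and Cdkn1c had 0.50. Thus 4 of the 8 belong to the Dlk1-Dio3 domain and are not separate loci. Rtl1 and Dio3, which also lie in that domain, had fewer than 100 UMIs in cluster 0.

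Markers of other cells moved with this result. In cluster 0, frontonasal markers summed to 718 CPM in the control and 436 CPM in the mutant library, periocular markers to 277 and 389 CPM, mural markers to 198 and 395 CPM, neuron markers to 49.0 and 107 CPM (0.534% and 1.17% of their level in neuron-like cells), and mandibular markers to 12.5 and 5.96 CPM. The cluster was therefore split by markers. Cells with more frontonasal than periocular and mural marker UMIs numbered 554 and 242, and the others 302 and 419, with 99 and 94 cells within 1 UMI of equal. In the former, 7 of 33 members were higher (21.2%, against 2.79% of genes) and none lower (against 1.82%). They were Dlk1, Meg3, Rian, Mirg, Plagl1, Nnat and Zdbf2. In the latter, 3 of 33 were higher (9.09%, against 2.23%) and none lower (against 1.33%), namely Peg3, Usp29 and Nnat. Nnat had 1.08 (1.02 to 1.13) in the former and 1.08 (1.02 to 1.13) in the latter, while Meg3 had 0.73 (0.63 to 0.83) and 0.42 (0.35 to 0.49) and Dlk1 0.83 (0.63 to 1.02) and 0.35 (0.20 to 0.51). Dio3, of the same domain as Meg3 and Dlk1, was lower in the latter, with -1.37 (-2.58 to -0.24) from only 20 control and 11 mutant UMIs. Neuron markers summed to 43.2 and 76.3 CPM in the former and to 61.9 and 128 CPM in the latter. Their part in the Nnat result was not tested.

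**Figure D4:**
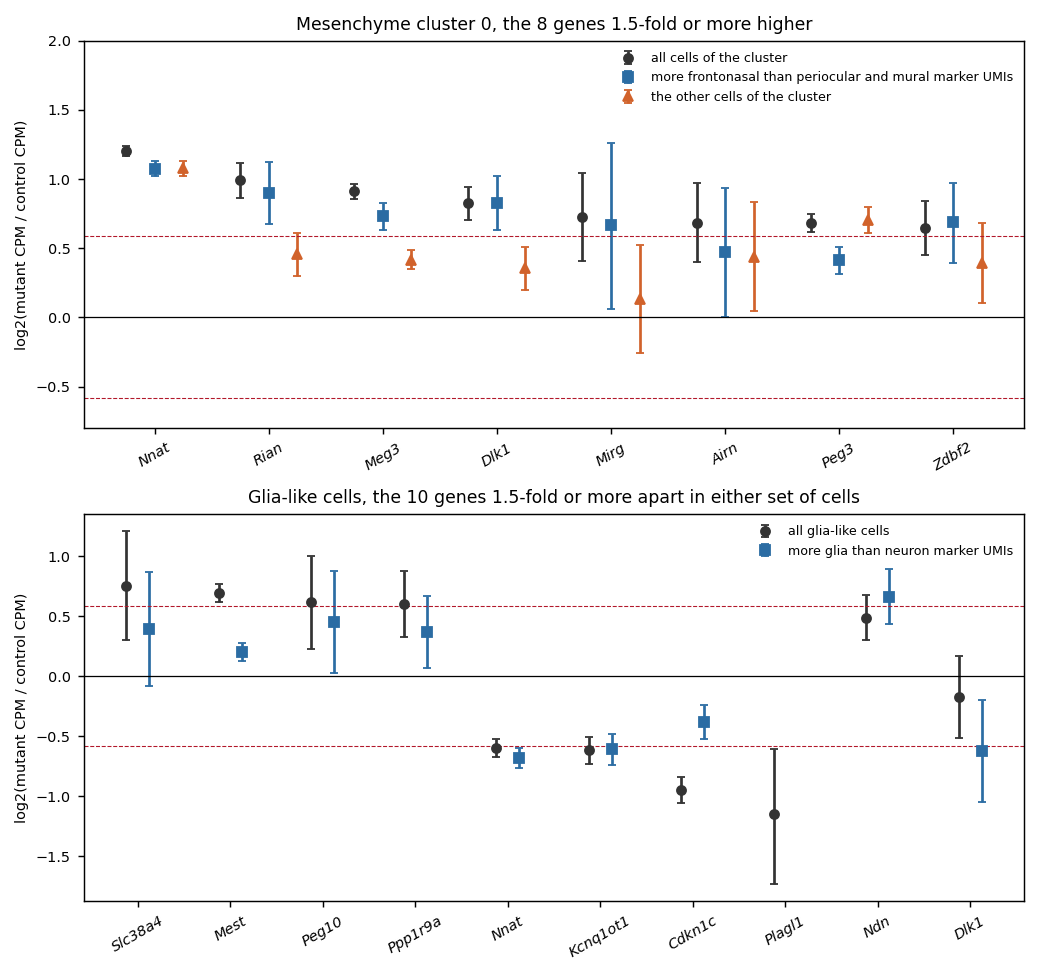
Log2 ratios of mutant over control CPM with exact 95% intervals for counting error, above for the 8 genes past 1.5-fold (dashed lines) in mesenchyme cluster 0, in all its cells and in the 2 sets divided by marker UMIs, and below for 10 genes in all glia-like cells and in those led by glia markers. Nnat lies near 1.1 in both sets of cluster 0 cells, and Cdkn1c and Mest lie nearer to 0 in the glia-marker-led cells, where Plagl1 has too few UMIs to be drawn.

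The other clusters differed less. Cluster 1, the frontonasal-like cells, did not hold all cells with frontonasal markers. These summed to 881 CPM in the control and 737 CPM in the mutant library there. In the cells of cluster 0 with more frontonasal than periocular and mural marker UMIs they summed to 911 and 790 CPM. In the frontonasal-like cells 1 of 35 members was higher (against 1.5% of genes), namely Asb4 with 0.64 (0.47 to 0.80), and 1 was lower (against 0.709%), namely Plagl1, from 63.4 to 38.6 CPM, with 768 control and 281 mutant UMIs and -0.71 (-0.92 to -0.52). In cluster 2 none of 35 was higher (against 1.64%) or lower (against 1.02%), although Zdbf2 had 0.56 (0.39 to 0.74) and Rian 0.45 (0.31 to 0.58). In the maxillary-like cells none of 36 was higher (against 0.884%) or lower (against 0.925%), the farthest values being 0.37 (-0.05 to 0.79) for Plagl1 and -0.31 (-0.36 to -0.26) for Cdkn1c. In the mandibular-like cells, where most members were highest, none of 36 was higher (against 0.932%) or lower (against 1.67%). There Cdkn1c had 0.43 (0.39 to 0.47), Dlk1 0.36 (0.32 to 0.40), Peg3 0.23 (0.19 to 0.26), Igf2 0.02 (-0.05 to 0.10) and Meg3 -0.03 (-0.07 to 0.02). Nnat was thus above 0 with an interval that left out 0 in clusters 0 to 3, and had 0.03 (-0.01 to 0.08) in the mandibular-like cells. Tfap2a was itself highest in cluster 0, from 55.7 to 30.6 CPM, and went from 14.3 to 3.85 CPM in the frontonasal-like cells, but had only 21 and 13 UMIs in the mandibular-like cells. Neither targeted gene was lower throughout. In cluster 2 Tfap2a went from 13.6 to 16.0 CPM and Tfap2b from 2.47 to 9.37 CPM (22 and 79 UMIs), with a log2 ratio of 1.92 (1.23 to 2.68) for Tfap2b, which also lay above 0 in clusters 3 and 4, with 0.69 (0.09 to 1.29) and 0.72 (0.04 to 1.40).

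The remaining members are given by their ranges over the 4 classes. In the Dlk1-Dio3 domain, Rtl1, a retrotransposon-derived gene, had 94 control and 72 mutant UMIs in the mesenchyme and at most 17 UMIs per library elsewhere. Phlda2, which restrains placental growth, had 102 control and 86 mutant UMIs in the mesenchyme and at most 15 elsewhere. Rian had between 48.4 and 164 CPM and Mirg between 6.16 and 23.8 CPM. In the Peg10 domain, Sgce, a sarcoglycan, had 24.5 to 50.3 CPM and Casd1, a sialic acid acetyltransferase, 34.7 to 62.2 CPM. Copg2, a coatomer subunit, had 27.2 to 53.5 CPM. Peg12 had 28.4 to 70.4 CPM, Commd1 123 to 184 CPM, H13, a signal peptide peptidase, 56.0 to 114 CPM, Impact, a translation regulator, 30.6 to 49.6 CPM, Trappc9 9.25 to 17.4 CPM and Zrsr1 4.01 to 9.40 CPM. None of these was 1.5-fold apart between the libraries in a class where it had 100 UMIs. Gnas had 879 to 1482 CPM, with -0.11 in the mesenchyme and 0.21 in glia-like cells.

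Grouped by the copy usually expressed, the 24 paternal members with at least 100 UMIs in the mesenchyme had a median log2 ratio of 0.11, with 0 higher and 1 lower by 1.5-fold. The 10 maternal members had 0.17, with 0 past the fold, and 7 members whose copy depends on tissue or transcript had -0.02, also with 0. Of 34 other imprinted genes, 33 were in the tables. In the mesenchyme 18 of them had 100 UMIs, and 2 were higher, Dcn, a matrix proteoglycan, with 0.87 (0.64 to 1.10) and Sfmbt2, a Polycomb-related gene, with 0.61 (0.09 to 1.14), while 0 were lower, against 3.07% of all genes higher and 1.01% lower. In glia-like cells 1 of 11, Gab1, a signalling adaptor, had 0.60 (0.25 to 0.94), against 6.22% of all genes higher in that class, and 0 of 15 in neuron-like and 0 of 14 in brain progenitor-like cells were past the fold. Of 14 genes of the IGF axis, 1 was higher in the mesenchyme, where 3.07% of all genes were, namely Pappa, a protease of IGF-binding proteins, with 0.75 (0.46 to 1.05). In glia-like cells 2 of 10 were higher, against 6.22% of all genes, Igf1 with 1.00 (0.42 to 1.59) and Igfbp5 from 55.7 to 388 CPM with 2.80 (2.61 to 2.99), beside the difference in markers given above. In the other 2 classes 0 were past the fold, and the IGF1 receptor gene Igf1r had 0.03 in the mesenchyme. Of 10 genes that keep imprints, such as Dnmt1, Trim28 and Zfp57, 9 had 100 UMIs in each class and 0 were past the fold in any class.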

How the data were processed

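The authors deposited, for each 10x 3′ library, raw UMI counts of genes in barcodes. They had made these counts with Cell Ranger (its header gives 6.0.0) on mm10. The strand setting is not given in the sources used here. Per the submitters' notes, bcl2fastq and Seurat 4.3.0 were also used. Barcodes with over 10% mitochondrial UMIs, under 200 or over 7500 genes were removed, as in the study, leaving 5625 of 6148 control and 5587 of 6063 mutant barcodes (82313680 and 77251738 UMIs). Libraries were integrated with Seurat 5.3.0 in R 4.3.3 (2000 variable genes, 30 dimensions, 20 for the mesenchyme), leaving out the members, other imprinted genes, 22 genes named in the study, Xist, Tsix and Y-linked genes. Classes were set at a resolution of 0.1, because the study's 0.05 merged neuron-like and brain progenitor-like cells, and mesenchyme and neuron clusters at 0.3 and 0.2. These resolutions and the naming (at least 3 markers above the other cells) were settled after the clusters were seen. Scrublet in scanpy 1.11.5 called 1.65% of control and 3.06% of mutant cells doublets, which were kept.

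UMIs were summed per library and class and given as CPM, with exact Poisson intervals, and log2 ratios with exact conditional binomial intervals. Cells are not replicates, so p-values were not calculated. Genes named in full were the 8 most abundant members in the mesenchyme, those 1.5-fold apart in any class and those 4-fold apart between classes, with at least 100 UMIs. Members named in the mesenchyme clusters or in subsets of cells were chosen after their values were seen. The members and lists were chosen with earlier results of these data known. All 42 identifiers matched GENCODE M21 (GRCm38). Of the members, 19 overlap a gene on the other strand and 11 on the same strand, so their counts are uncertain. TMM (edgeR 4.0.16) and median-of-ratios factors (DESeq2 1.42.0) served only as other scalings. The log2 ratios, their intervals and the 1.5-fold call were tested on simulated UMI sums that held counting error only. Clustering, thinning, marker splits and correlations were not tested in this way.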

Additional observations from a re-analysis of the deposited data

Results flagged for a closer look

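For 5 genes the log2 ratio of mutant over control lay on opposite sides of 0 in 2 classes, with intervals that left out 0 in both and a difference of 1.5-fold or more in at least 1 of them. Without the last condition 5 more genes, Meg3, Rian, Zdbf2, Impact and Gnas, had such intervals on both sides of 0. The difference between the classes was not tested, since each group had 1 library. Dlk1 had 0.11 in neuron-like and -0.61 in brain progenitor-like cells, and its neuron-like value was -0.17 with classes at a resolution of 0.05. Peg10 had 0.62 in glia-like and -0.081 in mesenchyme-like cells. Mest had 0.70 in glia-like and -0.17 in brain progenitor-like cells. Cdkn1c had 0.18 in mesenchyme-like and -0.95 in glia-like cells. Nnat had 0.49 in mesenchyme-like and -0.60 in glia-like cells. In the glia-like cells with more glia-marker than neuron-marker UMIs, the ratios were 0.45 for Peg10, 0.20 for Mest, -0.38 for Cdkn1c and -0.68 for Nnat, so each kept its sign there.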

How the results depend on the processing

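No paired analysis was possible because each group had 1 library and no result came from a test. In mesenchyme cluster 0, 8 members were higher by 1.5-fold. Between 8 and 10 were higher under either scaling, equal weight per cell, thinning, removal of doublets, no integration, and imprinted genes as clustering features. The count was 20 higher and 2 lower with genes called from a 25% difference upward (the looser fold), 1 at 2-fold and 3 in the cells without more frontonasal than periocular and mural marker UMIs, and the medians in the marker-divided cells were 0.24 and 0.15. The median in mesenchyme cluster 4 turned from 0.018 to -0.027 when cells had equal weight and to -0.021 when they were thinned.

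In the mesenchyme, the members higher and lower were 2 and 2 at the looser fold. With at least 30 UMIs or at least 1 UMI, 1 was higher. The count lower was 0 at 2-fold, with at least 300 UMIs, in thinned cells, and without the small clusters. In neuron-like cells, 5 were higher and 1 lower at the looser fold, and 2 were lower at 30 UMIs or 1 UMI. The count higher was 0 at 2-fold, with equal weight, in thinned cells, without doublets (then 1 lower), without small neuron clusters, with imprinted genes as features and with classes at a resolution of 0.05. In brain progenitor-like cells, 3 were higher and 2 lower at the looser fold, and 1 higher and 2 lower at 1 UMI. With equal weight 1 was higher and 0 lower, without doublets 1 was higher, and at 2-fold and without integration 0 were lower. In glia-like cells, 2 were higher under TMM, median-of-ratios factors, at least 300 UMIs or no integration, 9 at the looser fold, 0 at 2-fold (1 lower), and 1 in the cells led by glia markers. The cause was not tested. The marker-divided cells, the removal of small neuron clusters and the resolution of 0.05 were chosen after seeing the data. The number of libraries limits all comparisons, and depth limits Phlda2 and Nap1l5 outside their highest class. Depth limits Rtl1 and Dio3 in every class, and their highest class in the control library rested on 17 and 26 UMIs. Scaling moved ratios by at most 0.07 on the log2 scale.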
